A study of Mus musculus with 11 samples.

Results

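The proteasome genes examined here are those whose symbol in the probe annotation reads Psma, Psmb, Psmc, Psmd or Psme followed by a number, 42 of the 18194 genes named by 1 symbol on the arrays. They carry 88 probe sets, and 40 of the 42 genes met the condition for being tested, a probe set that exceeds the median signal on 2 or more of the 11 arrays. The other two were Psma8, an alpha subunit of male germ cells, with signals of 20.2 to 555, and Psmb11, a thymic catalytic subunit, with signals of 10.7 to 205. Signals of the bacterial trp control probe sets, which have no target in mouse RNA, ran from 13.8 to 440. Psme2 falls outside the rule, since its probe set is annotated to more than 1 gene, and is not analysed here.

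The proteasome is the protease that degrades proteins tagged with ubiquitin. Its core is a barrel of stacked rings, with outer rings of alpha subunits that gate the channel and inner rings of beta subunits, some of which carry the cutting sites. A regulatory cap binds the core to make the 26S proteasome. The base of the cap holds the ATPases that unfold substrates, and its lid removes the ubiquitin chain. In immune cells and under interferon, inducible catalytic subunits take the place of the constitutive ones in newly built cores, and other activators can replace the cap. In skeletal muscle the ubiquitin-proteasome pathway is known for its part in the loss of muscle protein after denervation.

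RNA came from the tibialis anterior muscle, which lifts the foot, of mice in which 1 allele of the transcription factor gene Runx1 was floxed and the other was null. Control mice (Runx1 f/-) had these alleles alone, and mutant mice (Runx1 f/-; MCK::cre) also carried Cre recombinase under the muscle creatine kinase promoter, which is active in muscle fibres. Control muscle had 3 innervated and 3 denervated arrays, and mutant muscle had 2 innervated and 3 denervated ones, with the nerve absent for 3 days per the titles. The labels do not say that replicates came from separate animals, so p-values measure only the spread between these samples. The sources used here give no ages. Only the mutant carried Cre, so effects of Cre and of Runx1 loss cannot be told apart, and the controls had 1 null allele too.

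The deposited values are probe set signals on a linear scale, with each array scaled to the same trimmed mean. Median signals per array ran from 442.5 to 604.6. The brightest Runx1 probe set ran from 178.9 to 519.1 in innervated muscle of both genotypes, from 23500 to 25900 in denervated control and from 20400 to 23190 in denervated mutant muscle. The genotypes overlapped in innervated muscle (178.9 to 519.1 in control, 288.2 to 395 in mutant), while in denervated muscle the mutant range lay below the control range without overlap. The same held in denervated muscle for 2 further of the 6 Runx1 probe sets, at 1209 to 2217 against 2619 to 3858 and 1145 to 1493 against 1574 to 3049, and the other 3 overlapped. The sources used here do not say whether any of these probes fall in the deleted exons, so Runx1 checks the genotype labels only in part. All 7 muscle fibre markers tested were bright, with summed signals of 995800 to 1829000 over the arrays. Hybridisation spike-ins, which are added in fixed amounts, averaged 14.01 log2 units in innervated and 13.18 in denervated control muscle, and 14.03 and 13.56 in mutant muscle. Centring arrays on them raises every denervation change by 0.83 log2 units in control and 0.47 in mutant, so that 95.0% rather than 52.4% of the genes called in control had risen, and 89.1% rather than 54.6% in mutant. All changes below are relative to the trimmed mean that the arrays share.

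A pair of arrays stood apart for proteasome genes. Innervated control 2 was the lowest of its group for 28 of the 31 constitutive 26S subunits, against 40.5% of all tested genes. Denervated mutant 3 was the highest of its group for 28 of the 31, against 30.7% of all tested genes. Both arrays widen the denervation difference, so the counts without each are given beside the main ones. For denervated control 3 the treatment note reads 5 days in place of 3, and the count without that array is given as well.

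Denervation raised most of the constitutive proteasome genes in control muscle. Of the 40 tested genes, 31 rose, 1 fell and 8 did not pass the threshold (limma, Benjamini-Hochberg adjusted p under 0.05 over all kept probe sets), where 18.0% of all tested genes rose and 16.4% fell (34.4% in either direction). The median change of the 40 genes was 0.73 log2 units, or 1.66-fold, against -0.01 for all tested genes. Among the 31 constitutive subunits of the 26S particle (alpha ring, structural and constitutive catalytic beta subunits, base and lid), 28 rose, with a median of 0.88 and a range of 0.33 to 1.37 log2 units. The 3 denervated arrays all lay above the 3 innervated arrays for 32 of the 40 genes and all below them for 2, against 24.1% and 22.6% of all tested genes. Without innervated control 2, 28 of the 40 genes rose and 2 fell, Psmb10 among them, with a median of 0.64. Without denervated control 3, 30 rose and 1 fell. The log2 ratio of 3' to 5' signal of beta-actin, a measure of RNA quality, averaged 0.053 in innervated and 0.218 in denervated control muscle, with overlapping ranges, and -0.001 and 0.246 in mutant muscle, without overlap, while that of Gapdh ran from -0.31 to -0.19 over all arrays. The part of RNA quality in the denervation changes was not tested.

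In mutant muscle the counts were alike. There 31 of the 40 genes rose, none fell and 9 did not pass the threshold, where 16.7% of all tested genes rose and 13.8% fell (30.5% in either direction). The median change was 0.79 log2 units against -0.01 for all tested genes. Of the 31 constitutive 26S subunits 29 rose, with a median of 0.91. Arrays of the nerve states did not overlap for 35 higher and 2 lower genes, against 31.2% and 29.5% of all tested genes. Without denervated mutant 3, 26 of the 40 genes rose and 1 fell, with a median of 0.72, and without innervated mutant 1, which leaves 1 innervated mutant array, 21 rose. In that fit the lone array is assumed to vary like the other groups.

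The genes that rose were largely shared by the genotypes, with 30 called up in both, Psme3 in control alone and Psmc5 in mutant alone. Neither gene's difference between genotypes passed the threshold in the interaction test described further on. Calls near the threshold moved with the fit. Psme3 was called in mutant too with the mean of kept probe sets (limma adjusted p = 0.0408) and under spike-in centring (adjusted p = 0.0072). The same held without denervated mutant 1 (adjusted p = 0.0449) or innervated control 2 (adjusted p = 0.0423). Psmc5 was called in control after quantile normalization (adjusted p = 0.0185), under spike-in centring (adjusted p = 0.000475) and without innervated control 1 (adjusted p = 0.0226). With the replicate number as a block in the 6 control arrays alone, Psmc5 was called in control too (limma adjusted p = 0.0218) and Psmd6 was not (adjusted p = 0.0719). With that block in all 11 arrays Psmd6 was not called in control (limma adjusted p = 0.0748), nor were Psmb5, Psma3 and Psmd6 in mutant (adjusted p = 0.0625, 0.079 and 0.0793). The mutant call of Psmc5 was lost without innervated mutant 1 (limma adjusted p = 0.133), innervated mutant 2 (adjusted p = 0.0515) or denervated mutant 3 (adjusted p = 0.0679). For 29 of the 31 constitutive 26S subunits the 6 denervated arrays all lay above the 5 innervated arrays, which held for 17.2% of all tested genes, and none had all 6 below, against 14.7%. The exceptions were Psmb7 and Psmc5. Across the 40 genes the change in mutant tracked that in control with r = 0.93 (Spearman 0.93), against r = 0.81 across all 12214 tested genes. These points share arrays and scaling, and genes are not independent replicates.

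**Figure D1:**
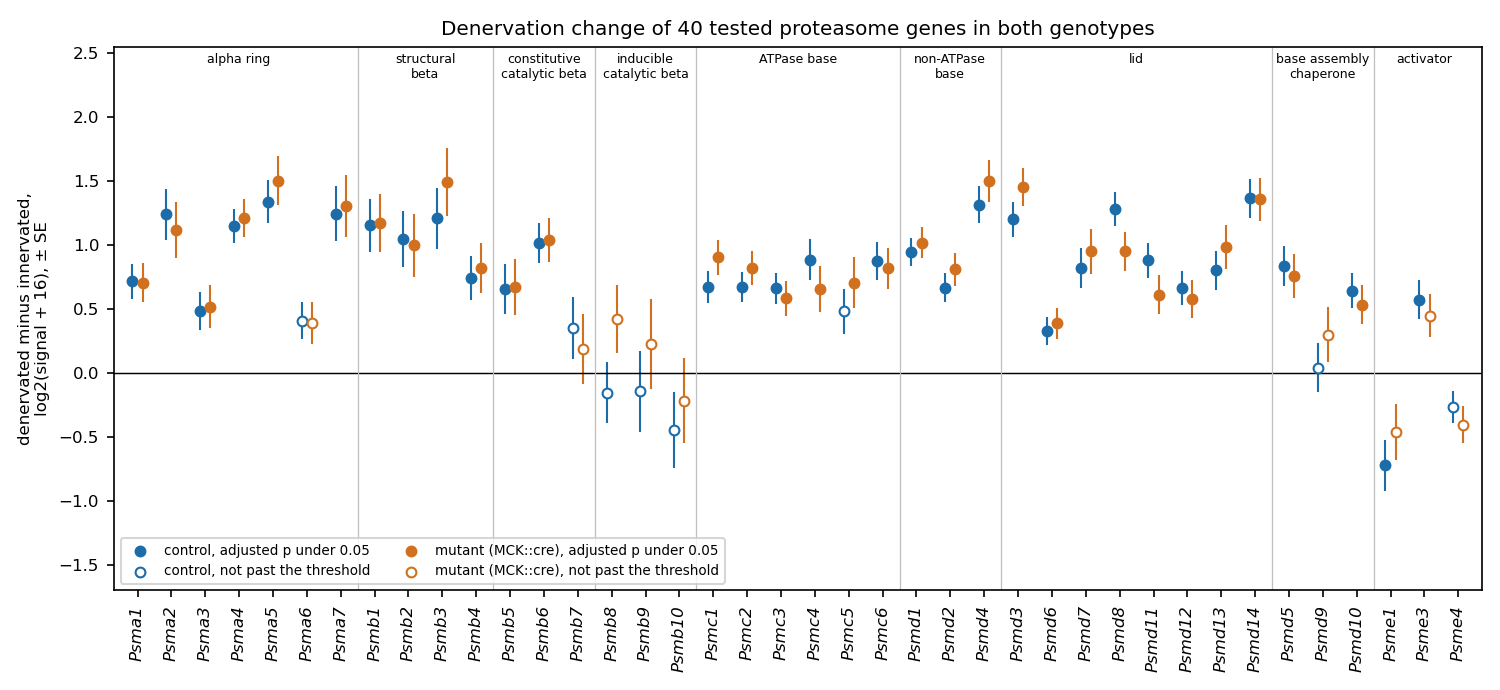
Denervated minus innervated log2(signal + 16) for the 40 tested genes, grouped by subcomplex, in control (blue) and mutant (orange), with the SE of the limma fit as bars and filled points for adjusted p under 0.05. Subunits of the alpha ring, base and lid lie above 0 in both genotypes. Psmb8, Psmb9, Psmb10 and Psmd9 are called in neither genotype in this fit, and Psme1 and Psme4 lie below 0 on this scaling. Under spike-in centring Psme1 and Psme4 lie above 0 in both genotypes, Psme1 by 0.11 log2 units in control, which was not called.

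The alpha ring rose in 6 of its 7 tested genes in control and 6 of 7 in mutant, with medians of 1.15 and 1.12 log2 units. Psma4 had signals of 32051, 24405 and 30934 in innervated control muscle and 61791, 68525 and 62765 in denervated control muscle. In mutant muscle it went from 28495 and 32418 to 63750, 71007 and 76994. No denervated array fell into the innervated range, and the rise in control was 2.22-fold (1.15 ± 0.13 log2 units, SE, limma adjusted p = 3.14e-05). Psma5 had 24492, 16866 and 27562 in innervated control and 58263, 51542 and 61770 in denervated control muscle. Signals in mutant muscle were 21162 and 25666 innervated and 64280, 62039 and 72646 denervated. The rise was 2.53-fold in control and 2.84-fold in mutant, with limma adjusted p of 6.60e-05 and 8.87e-05. Psma2 and Psma7 rose by 1.24 and 1.25 log2 units in control, and Psma1 and Psma3 by 0.72 and 0.49. The control call of Psma3 was lost without denervated control 1, denervated control 2 or innervated control 2 (limma adjusted p = 0.0942, 0.0646 and 0.0649). Its mutant rise of 0.52 (adjusted p = 0.03835) lost its call without any one denervated mutant array (adjusted p from 0.0674 to 0.1155). With no filter Psma3 lost both calls (limma adjusted p = 0.0711 in control and 0.0909 in mutant). By its brightest probe set Psma6 was the member that did not pass in either genotype, at 0.41 (limma adjusted p = 0.0521) and 0.39 (adjusted p = 0.096), although its arrays did not overlap between nerve states. A dimmer probe set of Psma6 rose in both, by 0.45 and 0.64 (limma adjusted p = 0.0437 and 0.0161), and quantile normalization called the brightest one in both (adjusted p = 0.00148 and 0.00808).

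By their brightest probe sets all 4 structural beta subunits, which form the inner rings beside the cutting subunits, rose in both genotypes. The medians were 1.10 and 1.09 log2 units. Far dimmer kept probe sets of Psmb1 (mean signals 1002 and 1011) stood at 0.37 and 0.44 in control and -0.26 and -0.32 in mutant, none past the threshold. With the mean of kept probe sets Psmb1 lost its mutant call (0.20, limma adjusted p = 0.517). Psmb1 had signals of 24967, 14569 and 27204 in innervated control and 47419, 45719 and 50399 in denervated control muscle. Its mutant signals were 20154 and 28485 innervated against 51613, 56549 and 54314 denervated. The control groups did not overlap, and the low innervated control 2 widens the difference of their means. The rise was 2.23-fold (1.15 ± 0.20 log2 units, SE, limma adjusted p = 0.000886). Psmb3 had 28476, 15744 and 34474 in innervated control and 59984, 48811 and 65481 in denervated control muscle. In mutant muscle Psmb3 had 20572 and 28627 innervated and 69331, 66382 and 69946 denervated. Its rise was 2.31-fold in control and 2.82-fold in mutant (limma adjusted p = 0.00181 and 0.00113). Psmb2 and Psmb4 rose by 1.05 and 0.74 log2 units in control.

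The catalytic subunits separated by kind only in part, since the constitutive Psmb7 passed the threshold in neither genotype in the main fit. The constitutive cutting subunits are Psmb5 (chymotrypsin-like), Psmb6 (caspase-like) and Psmb7 (trypsin-like), and their inducible counterparts are Psmb8, Psmb9 and Psmb10 in that pairing of Psmb8 with Psmb5, Psmb9 with Psmb6 and Psmb10 with Psmb7. Of the constitutive 3, Psmb5 and Psmb6 rose in both genotypes. Of the inducible 3, none passed the threshold in either genotype in the main fit. Psmb6 had signals of 28546, 18425 and 25126 in innervated control and 49314, 47419 and 46732 in denervated control muscle. Mutant arrays read 26029 and 26753 innervated and 48236, 53990 and 61565 denervated. The rise was 2.02-fold in control (1.02 ± 0.16 log2 units, SE, limma adjusted p = 0.000296) and 2.06-fold in mutant, with no overlap between nerve states. Psmb5 had 48637, 27771 and 41337 in innervated control and 70966, 53374 and 58062 in denervated control muscle. In mutant muscle Psmb5 had 36441 and 48493 innervated and 64084, 64526 and 72739 denervated. It rose 1.58-fold and 1.59-fold (limma adjusted p = 0.0209 and 0.0363). The control call was lost without denervated control 1 (limma adjusted p = 0.0886) or innervated control 2 (adjusted p = 0.0557). The mutant call was lost under the replicate block as above, without innervated mutant 1 (limma adjusted p = 0.26) and without any one denervated mutant array (adjusted p from 0.0637 to 0.106). Psmb7 had 134003, 60826 and 127552 in innervated control and 134248, 134726 and 119391 in denervated control muscle. Signals in mutant muscle were 94488 and 134865 innervated and 127204, 121049 and 137383 denervated. Nerve states overlapped for Psmb7, and its spread came from innervated control 2 and innervated mutant 1. The change of 0.35 ± 0.24 log2 units in control did not pass (limma adjusted p = 0.318). Psmb7 was called in control after quantile normalization (0.63, limma adjusted p = 0.0166) and under spike-in centring (1.18, adjusted p = 0.00476). Its mutant change was 0.19 ± 0.27 (adjusted p = 0.653), below those of the inducible Psmb8 and Psmb9.

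The inducible subunits were above the trp control probe sets on every array. Psmb8 had signals of 2006, 1107 and 1634 in innervated control and 1447, 1190 and 1532 in denervated control muscle. Its mutant signals were 1004 and 1068 innervated and 1105, 1798 and 1363 denervated. Psmb8 overlapped between nerve states in control, at -0.15 ± 0.24 log2 units (SE, limma adjusted p = 0.679). In mutant Psmb8 stood at 0.42 ± 0.27 (adjusted p = 0.264). All its denervated mutant arrays lay above the innervated ones, which held for 31.2% of all tested genes. Psmb9 had 1750, 818 and 853.6 in innervated control and 1392, 857 and 756.4 in denervated control muscle, so that replicate 1 was the high array of both groups. In mutant muscle it had 676.8 and 872.2 innervated and 734.8, 1062 and 942.2 denervated. Its changes were -0.14 ± 0.31 in control and 0.23 ± 0.35 in mutant (limma adjusted p = 0.775 and 0.668). Psmb10 had 3467, 1682 and 3231 in innervated control and 2085, 1526 and 2345 in denervated control muscle. Mutant arrays read 1771 and 3222 innervated and 1633, 2213 and 2405 denervated. Psmb10 stood at -0.44 ± 0.30 in control and -0.22 ± 0.33 in mutant (limma adjusted p = 0.299 and 0.67), and nerve states overlapped in both genotypes. Without innervated control 2, the low array of its group, Psmb10 was called down in control, at -0.77 (limma adjusted p = 0.0431). Under spike-in centring the median of these 3 genes in control was 0.67 in place of -0.15, and none was called.

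The unequal change of each pair was tested on the same arrays, as the log2 signal of the inducible subunit minus that of its constitutive counterpart. A constant scaling of an array cancels in this difference. For Psmb9 minus Psmb6 the difference, counted from the innervated mean of the genotype, was -0.69, -1.32 and -1.47 on the denervated control arrays and -0.93, -0.57 and -0.93 on the denervated mutant arrays. The innervated arrays ran from -0.41 to 0.43 in control and from -0.16 to 0.16 in mutant, below which all denervated arrays lay. Averaged over genotypes the difference of the changes was -0.99 log2 units, a ratio of 0.505 (exact two-sided permutation test within genotype, p = 0.005, the smallest that its 200 splits allow, 0.015 after Benjamini-Hochberg adjustment over the 3 pairs). For Psmb10 minus Psmb7 the difference was -0.60 log2 units, with -0.79 in control and -0.40 in mutant (exact permutation p = 0.01, adjusted 0.015), and it was -0.92 after quantile normalization. For Psmb8 minus Psmb5 it was -0.53, with -0.81 in control and -0.25 in mutant (exact permutation p = 0.025, adjusted 0.025). In control all 3 pairs separated the nerve states completely. In mutant, denervated array 2 of the Psmb8 pair lay at 0.17, above both innervated arrays. The Psmb8 pair lost its call without innervated mutant 1 (exact permutation, adjusted p = 0.0875) and reached 0.05, which does not pass, without any one of denervated control 1, denervated control 2, innervated mutant 2, denervated mutant 1 and denervated mutant 3. The Psmb10 pair likewise stood at 0.05 without innervated mutant 2. With equal replicate numbers as pairs, 5 pairs allow no p below 0.0625, and no difference could pass.

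**Figure D2:**
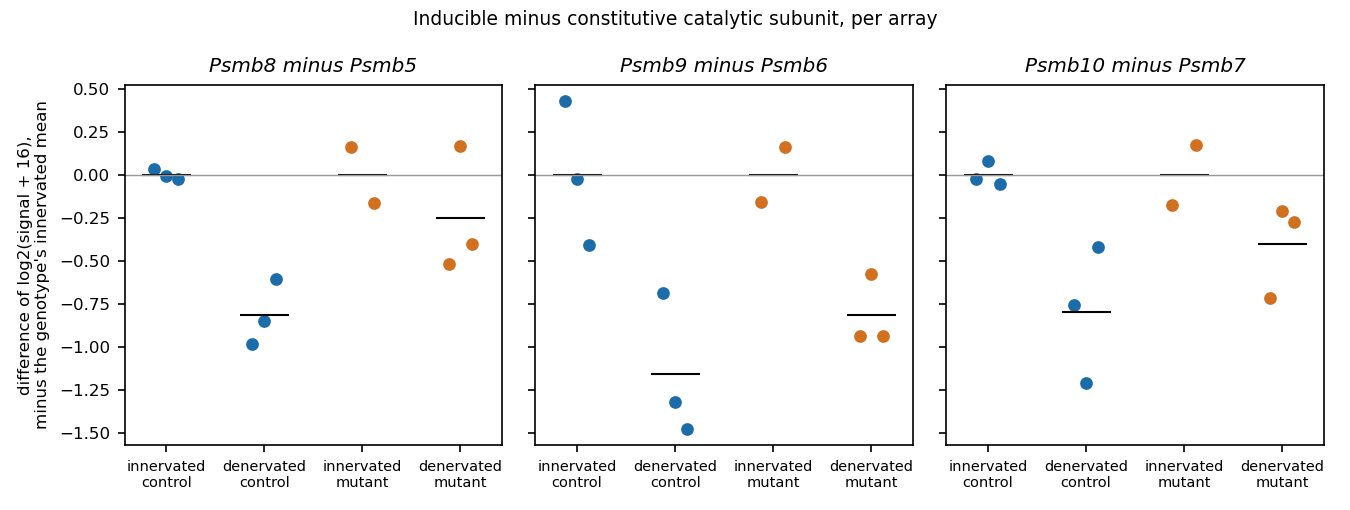
Difference of log2(signal + 16) between the inducible and the constitutive subunit of each catalytic position on the 11 arrays, minus the mean of the innervated arrays of the same genotype, with control in blue, mutant in orange and group means as lines. All 3 denervated control arrays lie below the innervated control arrays in each panel, by -0.81 on average for Psmb8 minus Psmb5, -1.16 for Psmb9 minus Psmb6 and -0.79 for Psmb10 minus Psmb7.

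Sequences just before the start sites of 3 of these genes are shown because the pairs moved unequally and each window holds a match to a stress or interferon motif. They are RefSeq windows on the GRCm38.p6 build, read 5′ to 3′ on the gene's strand, with the match in capitals: the antioxidant response element TGACNNNGC in Psmb5 (chr14:54618004-54618072, minus strand) and Psmb6 (chr11:70525318-70525356, plus strand), and the interferon-gamma activated site TTCNNNGAA in Psmb8 (chr17:34198068-34198136, plus strand).
Psmb5: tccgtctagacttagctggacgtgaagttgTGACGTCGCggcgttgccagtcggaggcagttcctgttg
Psmb6: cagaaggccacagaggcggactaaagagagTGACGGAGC
Psmb8: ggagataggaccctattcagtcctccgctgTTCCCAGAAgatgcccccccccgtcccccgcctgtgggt
A window of 250 bases before the start was searched on both strands for 35 of the 42 genes. Psma8, Psmb1, Psmb2, Psmb7, Psmc3, Psmd3 and Psmd7 had no window and were not searched. The antioxidant response element was in 5 of the 35 (14.3%; Psmb5, Psmb6, Psmc6, Psmd9 and Psmd12), against 11.5% of 27025 genes and 14.0% of all tested genes. The CCAAT box, CCAAT, was in 40.0% of the 35 and 37.5% of all genes. The interferon-gamma activated site was in Psmb8 alone, 2.86% against 8.13%, and the interferon-stimulated response element (GAAA, any 2 bases, GAAA) in Psmb3, Psmd4 and Psmd9, 8.57% against 3.46%. No match overlapped a match to another motif. These shares describe letters in the windows and say nothing on binding.

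Among the ATPases of the base, which unfold the substrate and thread it into the core, 5 of 6 rose in control and 6 of 6 in mutant, with medians of 0.67 and 0.76 log2 units. Psmc6 had signals of 30125, 32354 and 26418 in innervated control and 51759, 64200 and 47980 in denervated control muscle. Signals in mutant muscle were 33964 and 27405 innervated and 49763, 52548 and 59553 denervated. The rise was 1.84-fold in control (0.88 ± 0.15 log2 units, SE, limma adjusted p = 0.00056), although a dimmer probe set of the gene gave 0.23. Psmc2 had 47633, 42552 and 52554 in innervated control and 79156, 70217 and 77485 in denervated control muscle. In mutant muscle it had 46799 and 46819 innervated and 84339, 76927 and 87074 denervated. The rises were 1.59-fold and 1.77-fold with clear separation (limma adjusted p = 0.000805 and 0.000539). Psmc1, Psmc3 and Psmc4 rose by 0.67, 0.66 and 0.89 log2 units in control. Psmc5 had 37541, 22150 and 33312 in innervated control and 47095, 37079 and 43304 in denervated control muscle, where the ranges overlapped, at 0.48 ± 0.18 (limma adjusted p = 0.0587). In mutant muscle Psmc5 had 30030 and 34688 innervated and 50276, 50563 and 57568 denervated, a rise of 0.71 ± 0.20 (adjusted p = 0.0194).

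All 3 non-ATPase subunits of the base rose in both genotypes, with medians of 0.95 and 1.02 log2 units. Psmd4, a receptor for ubiquitin chains, had signals of 30521, 21495 and 29932 in innervated control and 75247, 63209 and 63985 in denervated control muscle. Its mutant signals were 25478 and 27482 innervated and 73053, 71497 and 80899 denervated. Denervated arrays started at 63209 and innervated arrays ended at 30521, a rise of 2.49-fold in control and 2.83-fold in mutant (limma adjusted p = 2.13e-05 and 2.56e-05). Psmd1, a scaffold of the base, had 27417, 29851 and 28693 in innervated control and 57473, 54825 and 53573 in denervated control muscle. In mutant muscle Psmd1 had 28955 and 27019 innervated and 54506, 55097 and 60853 denervated. Its groups were tight, with a rise of 1.93-fold in control (0.95 ± 0.11 log2 units, SE, limma adjusted p = 2.64e-05). Psmd2, the other scaffold, rose by 0.67 and 0.81 log2 units.

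The lid rose in all 8 genes in both genotypes, with medians of 0.85 and 0.95 log2 units. Psmd14, the deubiquitinase that cuts the ubiquitin chain from the substrate, had signals of 29386, 21133 and 29960 in innervated control and 61619, 76858 and 67635 in denervated control muscle. Mutant arrays read 28560 and 25997 innervated and 67727, 64746 and 77883 denervated. The rise of 2.58-fold in control (1.37 ± 0.15 log2 units, SE, limma adjusted p = 2.15e-05) left a wide gap between the groups. Psmd8 had 36850, 30290 and 35567 in innervated control and 93220, 87649 and 70131 in denervated control muscle. In mutant muscle Psmd8 had 38217 and 38168 innervated and 68624, 72214 and 81589 denervated. Among the brightest probe sets of the 40 genes it had the smallest p in control, with a rise of 2.43-fold (limma adjusted p = 1.45e-05), and rose 1.94-fold in mutant (adjusted p = 0.000532). Psmd3 rose by 1.20, Psmd11 by 0.88, Psmd7 by 0.82, Psmd13 by 0.80 and Psmd12 by 0.66 log2 units in control. Psmd6 had the smallest rise of the lid, 0.33 ± 0.11 (limma adjusted p = 0.0402). The control call for Psmd6 was lost without any single one of innervated control 2, innervated control 3 and the denervated arrays of either genotype. A second probe set gave 0.08 in control and 0.005 in mutant. The mutant rise of Psmd6 was 0.39 ± 0.12 (limma adjusted p = 0.0338). That call was lost without any one denervated mutant array (adjusted p from 0.052 to 0.098). With no filter Psmd6 lost both calls (limma adjusted p = 0.126 in control and 0.107 in mutant). Without innervated mutant 1 or innervated mutant 2 its mutant change was 0.32 and 0.46 log2 units, with 1 innervated mutant array left.

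Psmd5, Psmd9 and Psmd10 carry subunit symbols but are chaperones that guide assembly of the base and are absent from the finished particle. Of these, 2 rose in both genotypes. Psmd5 had signals of 4610, 4922 and 3808 in innervated control and 7507, 8693 and 7571 in denervated control muscle. Signals in mutant muscle were 4581 and 4446 innervated and 6725, 7273 and 9170 denervated. The rise was 1.78-fold in control and 1.69-fold in mutant, with no overlap (limma adjusted p = 0.00119 and 0.00582). Psmd10 (gankyrin) had 2765, 2443 and 2741 in innervated control and 4409, 4056 and 3991 in denervated control muscle. In mutant muscle it had 2586 and 3130 innervated and 4060, 4142 and 4182 denervated, and it rose 1.56-fold and 1.45-fold (limma adjusted p = 0.00287 and 0.0201). The mutant call of Psmd10 was lost without denervated mutant 2 or denervated mutant 3 (limma adjusted p = 0.0564 and 0.0587). Without innervated mutant 1 its mutant change was 0.40 log2 units. Psmd9 stood at 0.04 ± 0.19 in control and 0.30 ± 0.21 in mutant and did not pass. Under spike-in centring Psmd9 was called up in control (0.87, limma adjusted p = 0.0101).

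**Figure D3:**
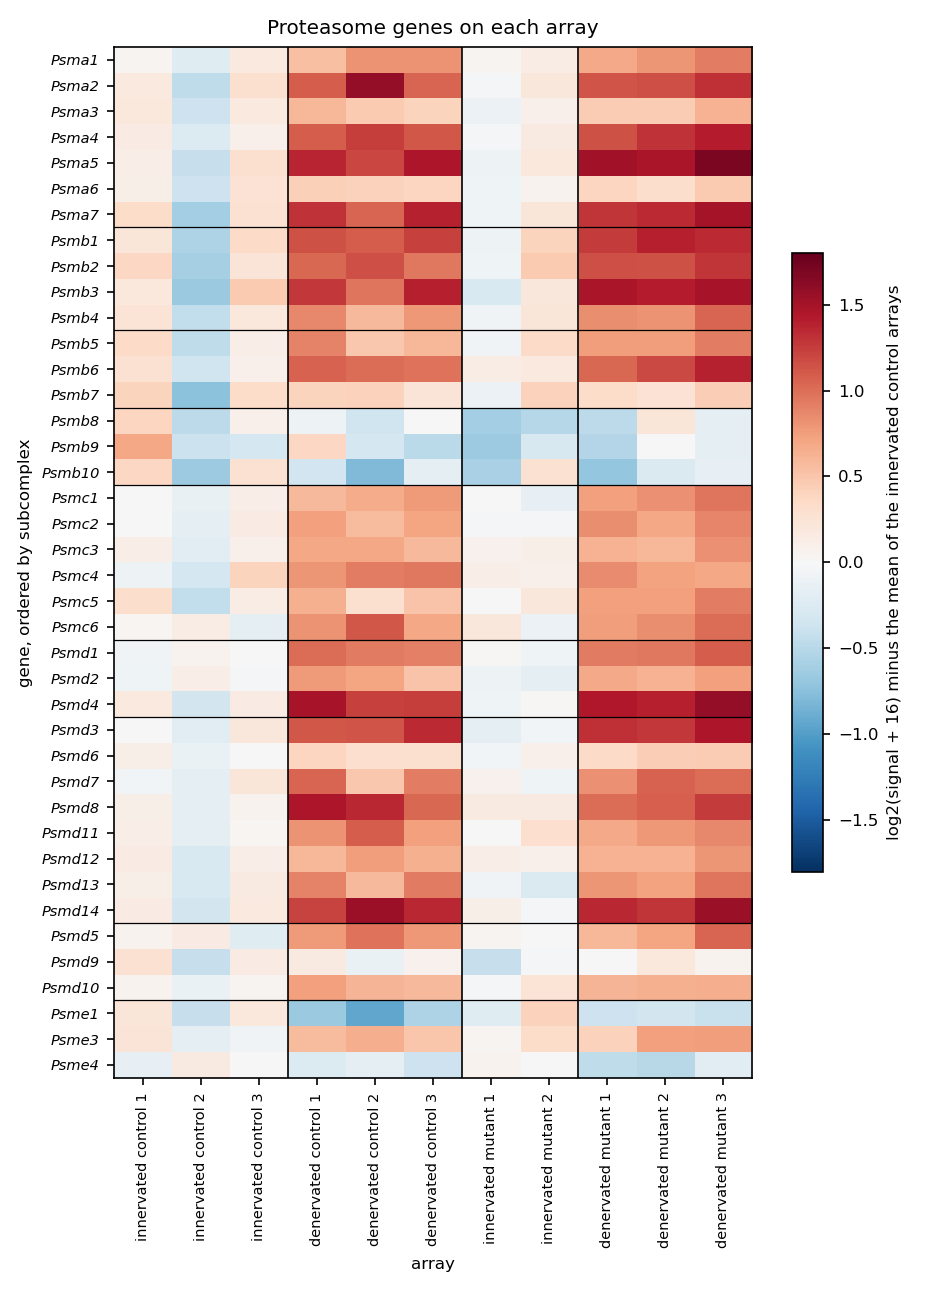
Log2(signal + 16) of the 40 tested genes (rows, ordered by subcomplex) on each of the 11 arrays (columns), as the difference from the mean of the innervated control arrays. Red fills the denervated columns for the alpha ring, base and lid, and innervated control 2 is paler or blue within its group. The rows of Psmb8, Psmb9, Psmb10, Psme1 and Psme4 lack the red. Under spike-in centring the changes of Psme1 and Psme4 lie above 0 in both genotypes, Psme1 by 0.11 log2 units in control, which was not called.

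The activators, which bind the core in place of the cap, went different ways. Psme1, a subunit of the interferon-inducible activator PA28 alpha-beta, had signals of 13085, 8436 and 12818 in innervated control and 7034, 5874 and 7646 in denervated control muscle. Its mutant signals were 9608 and 14935 innervated and 8705, 8914 and 8486 denervated. Denervated arrays lay below innervated ones in both genotypes, and Psme1 fell by 0.72 ± 0.20 log2 units in control (SE, limma adjusted p = 0.015) on the trimmed-mean scaling, while spike-in centring turned the value to 0.11 (adjusted p = 0.733). The call was lost without denervated control 2 (limma adjusted p = 0.0665), innervated control 1 (adjusted p = 0.0634) or innervated control 3 (adjusted p = 0.0555), and the mutant value of -0.46 ± 0.22 did not pass (adjusted p = 0.146). Psme3, the nuclear activator PA28 gamma, had 8548, 6434 and 6964 in innervated control and 10832, 11430 and 10246 in denervated control muscle. In mutant muscle Psme3 had 7509 and 9162 innervated and 9731, 12182 and 12297 denervated. All denervated arrays were above the innervated ones, with a rise of 1.49-fold in control (limma adjusted p = 0.0118) and 0.45 ± 0.17 log2 units in mutant (adjusted p = 0.0679). Psme4, the activator PA200, had 68096, 84825 and 75357 in innervated control and 63845, 67311 and 58289 in denervated control muscle. Mutant arrays read 78936 and 75325 innervated and 55461, 53586 and 66642 denervated. Denervated arrays were again the lower ones, at -0.27 ± 0.13 and -0.40 ± 0.14 log2 units, and neither value passed (limma adjusted p = 0.143 and 0.0538), while spike-in centring turned the control value to 0.57 (adjusted p = 0.00914). In mutant Psme4 was called down in the fit of the 2 compared groups alone (limma adjusted p = 0.0429) and without innervated control 2 (adjusted p = 0.0263). It was also called down without denervated mutant 3 (adjusted p = 0.0376), as the gene that fell in that count. Fewer cells of a type and less RNA per cell cannot be told apart in such bulk samples.

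**Figure D4:**
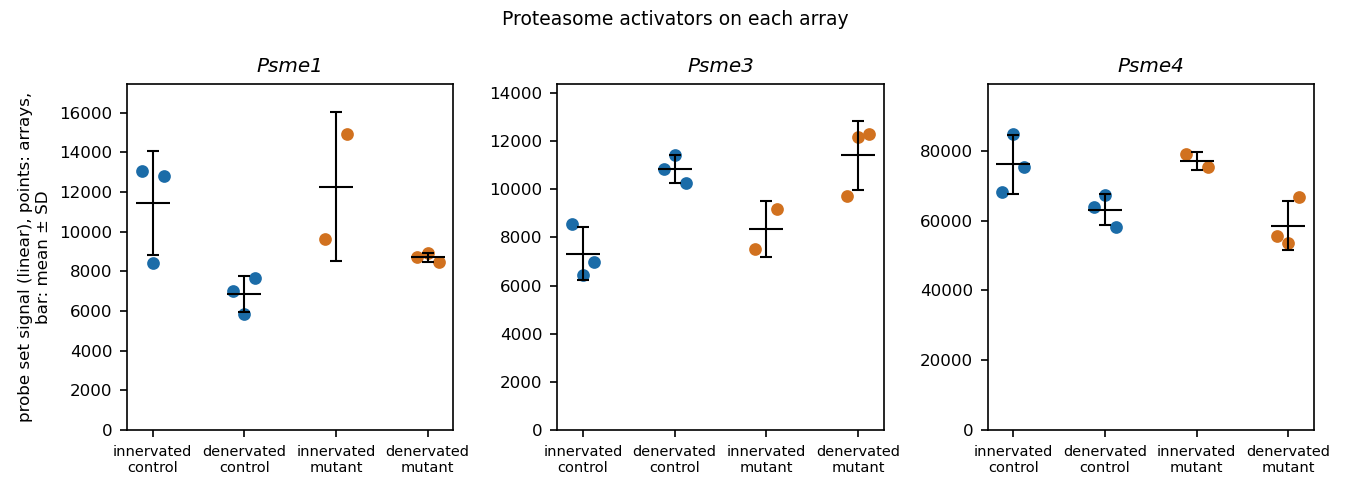
Probe set signals of Psme1, Psme3 and Psme4 on each array, on a linear axis from 0, with the group mean and SD as bars, control in blue and mutant in orange. Denervated arrays lie below innervated ones for Psme1 (5874 to 7646 against 8436 to 13085 in control) and Psme4 and above them for Psme3. Under spike-in centring the changes of Psme1 and Psme4 are positive in both genotypes, Psme1 at 0.11 log2 units in control, which was not called.

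Where several probe sets measured a gene at a mean signal of at least 5000, they agreed on sign but not always on size. There were 17 such pairs of a brightest and a dimmer probe set, from 14 genes, and all 17 had the same sign in control. The dimmer one gave the larger change in 9 of the 17 in control and 8 in mutant. The widest gap was in Psmd11, at 0.88 against 1.68 log2 units in control. Psmb4 gave 0.74 and 0.26, and Psmc4 gave 0.89 and 1.27. Differences in size between single subunits were not tested.

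Genotype made no difference that passed the threshold for any of the 40 genes. In denervated muscle 0 of the 40 were called between mutant and control by limma, with 0 at an unadjusted p under 0.05, where 2.19% of all tested genes were called. The differences ran from -0.17 to 0.35 log2 units with SE of 0.11 to 0.31, and the smallest limma adjusted p was 0.562. For 5 of the 40 genes all mutant arrays lay above all control arrays, and for 0 below, against 12.6% and 10.4% of all tested genes. The gene with that p was Psmc5, whose denervated mutant arrays (50276, 50563 and 57568) all lay above the denervated control arrays (47095, 37079 and 43304), by 0.32 ± 0.18. The denervated mutant arrays of Psme1 also lay above those of control, by 0.35 ± 0.20 (limma adjusted p = 0.563). Psmc1 came next, with 38461, 40855 and 43640 in denervated control and 42674, 45229 and 50208 in denervated mutant muscle, which overlapped. Its innervated signals were 25873, 23356 and 27963 in control and 25880 and 23180 in mutant.

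In innervated muscle 0 of the 40 genes differed between genotypes by limma, with 0 at an unadjusted p under 0.05 and 0.0% of all tested genes called. Differences ran from -0.56 to 0.20 log2 units. The mutant arrays lay above the control arrays for 1 gene and below them for 2, against 7.61% and 8.24% of all tested genes. The lowest was Psmb8, whose innervated mutant arrays (1004 and 1068) lay below the 3 control arrays (1107 to 2006), at -0.56 ± 0.27 (limma adjusted p = 0.998). Psmb9 followed at -0.47 ± 0.35 and Psme3 at 0.19 ± 0.17, with overlapping arrays. The panleukocyte marker Ptprc had 961.2 and 1018 on the same mutant arrays against 2669 to 3162 on the control arrays, and its part in the Psmb8 and Psmb9 values was not tested.

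The interaction, which compares the denervation changes of the genotypes (mutant minus control), was called for 0 of the 40 genes by limma and for 0 at an unadjusted p under 0.05, where 0.262% of all tested genes were called (0.123% higher and 0.139% lower in mutant). Values ran from -0.33 to 0.58 log2 units with SE of 0.16 to 0.47, so that differences of this size between genotypes were not detectable at this precision. Psmd8 had the lowest value and p, at -0.33 ± 0.20 (limma adjusted p = 0.777), Psmb8 the highest value, at 0.58 ± 0.36 (adjusted p = 0.778), and Psmd11 stood at -0.27 ± 0.20. Psmd11 had signals of 56155, 46211 and 53143 in innervated control and 90888, 110191 and 86186 in denervated control muscle. Signals in mutant muscle were 52069 and 63866 innervated and 82572, 88695 and 93759 denervated, a rise in both genotypes.

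The counts of 3 lists of related genes stand against the 18.0% of all tested genes that rose in control and 16.7% in mutant. Of 13 tested genes of assembly and associated factors, 7 rose and none fell in control (median 0.75 log2 units) and 6 rose in mutant (median 0.61). Usp14, a deubiquitinase that rides on the cap, rose by 1.41 ± 0.19 in control (limma adjusted p = 9.13e-05) and 0.86 in mutant. Txnl1, a thioredoxin bound to the particle, rose by 0.85 and 0.92. Akirin2, which brings proteasomes into the nucleus, rose by 0.81 and 0.69. Psmg2, an assembly chaperone of the core, rose by 0.76 in control and stood at 0.34 in mutant (limma adjusted p = 0.148).

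Of 14 genes of ubiquitin shuttles and the VCP unfoldase, 7 rose and none fell in control (median 0.39 log2 units) and 8 rose in mutant (median 0.45). Nsfl1c, a VCP cofactor, rose by 1.14 and 1.04. Zfand2a, a stress-induced proteasome partner, rose by 1.56 and 1.33. Nploc4, which delivers ubiquitylated proteins to VCP, rose by 1.16 and 1.50, and Rad23b, a shuttle to the proteasome, by 1.06 and 0.97. Limma adjusted p for these 4 genes in control ran from 3.80e-05 to 8.06e-05. Of the ubiquitin precursor and activating enzyme list 1 gene was tested, Uba6, at 0.10 in control and -0.40 in mutant, neither past the threshold.

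Of 14 genes of the NFE2L1 and NFE2L2 pathway, 10 rose and 1 fell in control (median 0.94 log2 units) and 10 rose in mutant (median 1.29). NFE2L1 is the transcription factor known to raise proteasome genes when proteasome activity is short, and NFE2L2 is the factor of the antioxidant response. Srxn1 (sulfiredoxin) rose by 3.04 ± 0.18 and 2.93 ± 0.20 log2 units, Txnrd1 (thioredoxin reductase) by 1.49 and 1.71, Hmox1 (heme oxygenase) by 2.48 and 4.11 and Nfe2l2 itself by 1.01 and 1.20. The gene that fell in control was Ngly1, the glycanase that processes NFE2L1, at -0.42 ± 0.14 (limma adjusted p = 0.037) on the trimmed-mean scaling, a value that is positive under spike-in centring, and it was at 0.07 in mutant. Nfe2l1, named here after its values were seen, had 24034, 21975 and 26863 in innervated control and 27068, 23368 and 30596 in denervated control muscle. These overlapped, at 0.15 ± 0.13 (limma adjusted p = 0.432), with 0.20 ± 0.14 in mutant.

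**Figure D5:**
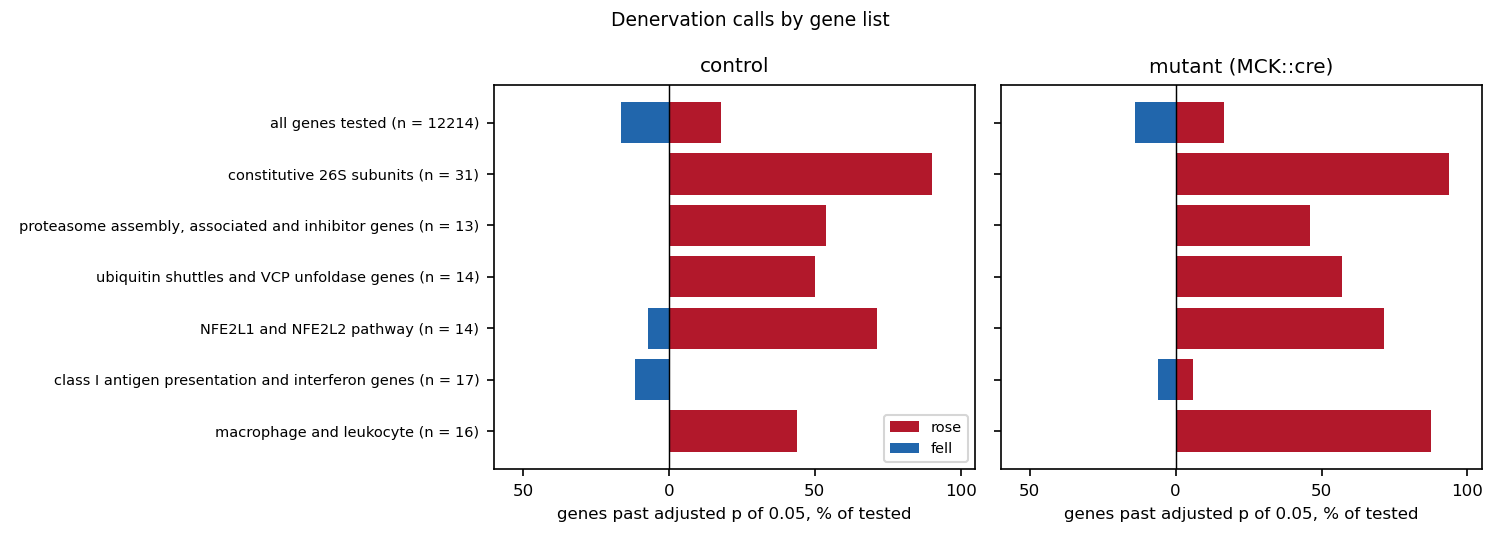
Share of tested genes that rose (red, right) or fell (blue, left) with denervation at a limma adjusted p under 0.05, in % of the tested genes of each list, in control and mutant. The constitutive 26S subunits rose in 28 of 31 and 29 of 31, against 18.0% and 16.7% of all genes, and class I antigen presentation genes in 0 and 1 of 17; under spike-in centring 95.0% of all called genes rose in control.

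Psmb8 and Psmb9 lie beside Tap1 and Tap2, which encode the peptide transporter, on chromosome 17 and act with them in antigen presentation. Of 17 tested genes of class I presentation and interferon response, 0 rose and 2 fell in control (median -0.09 log2 units), and 1 rose and 1 fell in mutant (median -0.07), where 18.0% of all tested genes rose and 16.4% fell in control and 16.7% and 13.8% in mutant. In control the denervated arrays lay below the innervated ones without overlap for 6 of the 17 and above them for 0, against 22.6% and 24.1% of all tested genes. In mutant they lay above for 6 and below for 4, against 31.2% and 29.5%. In control Gbp3, an interferon-induced GTPase, fell by 1.37 ± 0.32 (limma adjusted p = 0.00565), and Irf9, a transcription factor of the interferon response, fell by 0.63 ± 0.21 (adjusted p = 0.041), the latter positive under spike-in centring. Ifit3 stood at -0.41 and Gbp2 at -0.43 in control without passing. In mutant Ifit3 fell by 0.70 (limma adjusted p = 0.0118) and Erap1, a peptide-trimming protease, rose by 0.62 (adjusted p = 0.0466). Tap1 and Tap2 were at -0.14 and -0.09 in control and did not pass in either genotype. In mutant Tap1 had the largest change of the list, at 1.05 log2 units. Between genotypes (mutant minus control) Tap1 stood at -1.40 in innervated muscle, which was not called.

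Markers of other cells moved with nerve state. Of 16 macrophage and leukocyte genes, 7 rose in control and 14 in mutant, with none falling. Their summed signal ran from 32910 to 47940 in innervated and 95970 to 135900 in denervated control muscle, and from 26800 to 29600 and 121000 to 133100 in mutant muscle. Cd68 and Lgals3 rose by 3.89 log2 units each in control. Ptprc stood at -0.04 in control and rose by 1.72 in mutant. Muscle fibre genes fell in 5 of 7 cases in control and 7 of 7 in mutant on the trimmed-mean scaling, with medians of -0.46 and -0.57, of which the control median is positive under spike-in centring. Endothelial genes fell in 4 of 6 and 2 of 6, with medians of -0.70 and -0.52, the former positive under spike-in centring. Satellite cell genes rose in 2 of 5 and 3 of 5, and fibroblast genes fell in 0 and 1 of 6. Schwann cell genes fell in 1 of 3 in each genotype, and 0 of 2 adipocyte genes passed. Of 7 T and NK cell genes 1 was tested, and their summed signal was 503.6 to 2587. The part of these cells in the proteasome changes was not tested.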

How the data were processed

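Affymetrix arrays of 45101 probe sets measured the RNA of 11 muscle samples. The authors deposited linear signal intensities, which the values show to be scaled to a 2% trimmed mean of 2500 per array. The sources used here do not name the software. Intensities were used as log2(value + 16), and fold changes are on that scale, which understates dim genes. Tests left out 64 control probe sets and used the 26170 others that exceeded the array median on 2 or more arrays. A gene was its brightest kept probe set (12214 genes). The annotation gave 1 symbol to 34958 probe sets, several to 932 and none to 9211.

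Groups followed the titles. Limma 3.58.1 in R 4.3.3 fitted 1 mean per group over the 11 arrays (eBayes with trend), with Benjamini-Hochberg adjustment over kept probe sets and a threshold of 0.05. In 5 comparisons, denervation was tested in each genotype, genotype in each nerve state, and their interaction. Pairs of catalytic subunits were compared with exact permutation tests. The number of arrays limits the precision.

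The genes and lists were chosen with earlier results of these data known. Values on each array are given for the 2 genes of each subcomplex with the smallest p in control, the 6 catalytic subunits, the activators and the 3 genes with the smallest p in each genotype comparison, and up to 4 genes are named from other lists; cell type genes, Nfe2l1, Ngly1, Erap1, Tap1, Tap2, H2-K1 and B2m were named after their values were seen. Alternatives were other pseudocounts, scalings, filters, probe set rules, arrays left out, 2-group fits and replicate blocks. Deviations from the group means of equal-numbered control arrays correlated at 0.11, 0.22 and 0.30 over probe sets, and of mutant arrays at 0.03 and 0.05. The main fit and the main permutation tests had no block; the replicate number was a block, as an alternative, in all 11 arrays and in the 6 control arrays alone. The labels name no batch.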

Additional observations from a re-analysis of the deposited data

How the results depend on the processing

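The values that answer a comparison are the pair differences and the counts of called genes. Under the alternatives 144 of them were rated the same, among them counts that moved, and 10 catalytic pair values lost a call. Calls of single genes changed as well. Of the denervation values of single genes, 65 lost a call, 22 gained one and 1551 were rated the same. Another 2 were reversed, Psme1 and Psme4 in control under spike-in centring. With the replicate block the Psmb8, Psmb9 and Psmb10 pairs stood at -0.49, -0.96 and -0.63 log2 units (exact permutation, adjusted p = 0.125, 0.0938 and 0.0938), and 5 pairs of arrays allow no p below 0.0625. Leaving out 1 array moved them over -0.63 to -0.45, -1.11 to -0.88 and -0.69 to -0.49. Leaving out 1 array gave 29 to 32 called genes in control and 21 to 34 in mutant, the lowest without innervated mutant 1. The replicate block gave 31 in control and 28 in mutant, and 32 in the 6 control arrays alone, a fit added after seeing the data, so blocking changed no count by more than 1.5 times. Spike-in centring gave 36 in control, all up, and 33 in mutant, with medians of all tested genes of 0.82 and 0.46 log2 units, and called 7332 genes up and 387 down in control against 2200 and 2002. It turned Psme1 to 0.11 and Psme4 to 0.57 in control; the shift of the spike-ins themselves sets this. With the mean of kept probe sets 30 genes were called in control and 26 in mutant. In that setting Psma3 and Psmd6 lost their calls in both genotypes. Psma1, Psmb1, Psmc6 and Psmd13 lost theirs in mutant, where Psme3 gained one. Both genotype comparisons and the interaction stayed at 0 called proteasome genes under each alternative that was run. The dim Psma8 and Psmb11 limit what can be said of them.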

Other observations

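Some class I antigen presentation genes, named here after their values were seen, were high on replicate 1 of both control groups. H2-K1, a class I heavy chain, had signals of 33646, 10379 and 10669 in innervated control and 32391, 16309 and 13869 in denervated control muscle. This compares with 11967 to 18454 over the 5 mutant arrays. B2m, the light chain, had 58931, 19379 and 27308 in innervated control and 42244, 30587 and 29907 in denervated control muscle. Replicate 1 was the highest array of both control groups for 8 of the 17 class I and interferon genes (47.1%), against 13.0% of all tested genes, and for Psmb9 among the inducible subunits (1750 and 1392).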
